A study of Zea mays with 16 samples.

Results

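Developing kernels of RIL60 and RIL78, maize (Zea mays) lines that the submitters call drought tolerant, were compared here as they grew under full irrigation. The comparison used the well watered RNA on 8 of the 16 arrays of the study, 4 arrays of RIL60 and 4 of RIL78, and asked which probes differ between 2 tolerant genotypes when neither is stressed. Recombinant inbred lines are derived from the progeny of a cross that were selfed until nearly homozygous, and each carries a fixed mixture of the parents' alleles, so a line is 1 genotype and not a sample of tolerant genotypes. RIL60 kernels and RIL78 kernels were both taken 10 days after pollination from field plots irrigated to a soil moisture of about 30%, and their stressed counterparts came from plots at about 16% from 3 weeks before flowering. Each RNA was poly(A) RNA from a pool of 6 to 9 kernels of 3 ears. The susceptible lines RIL66 and RIL68, with 4 arrays each, were used only for their well watered levels.

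At this stage a maize kernel is made up mostly of endosperm, in which cell division is giving way to the synthesis of starch and storage proteins, with a small embryo and a surrounding pericarp of maternal tissue. Kernels at this age are still setting the number of endosperm cells and starch granules that later limits grain filling, which is why drought around flowering and early kernel growth is known for its cost in yield. Whole kernels were extracted, so fewer cells of a type and less RNA per cell cannot be told apart. The arrays carry probe IDs only, none of which was found in the gene table used here, so probes are reported by ID, the kernel label was not checked against tissue markers, and no gene, pathway or sequence is given.

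Every array held the well watered RNA of a line in 1 dye and the stressed RNA of the same line in the other. The well watered RNA was in Cy3 on replicates 1 and 2 and in Cy5 on replicates 3 and 4, in both lines. The level of a probe is its log2 intensity in the well watered channel after background correction and scaling between the arrays of 1 dye, so a difference of 1 is a 2-fold difference. Between 53.5% and 79.3% of probes were above background on the RIL60 arrays and between 34.8% and 74.8% on the RIL78 arrays. Levels correlated at 0.93 to 0.96 between RIL60 arrays, at 0.85 to 0.92 between RIL78 arrays and at 0.80 to 0.91 between arrays of different lines. RIL78 replicate 1 had the lowest share of probes above background, and its duplicate spots correlated at 0.85. The labels call the 4 arrays hybridisation replicates and do not state if separate RNA extracts were used, so p-values rest on the spread between hybridisations alone, and that spread may be technical. A running number in the file headers was lower on each RIL60 array than on any RIL78 array, so line and whatever that number records cannot be told apart.

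RIL60 and RIL78 kernels differed at 107 of 1000 probes without stress, which is 10.7% at an adjusted p under 0.05. Of these, 53 (5.3% of all probes) were higher in RIL60 and 54 (5.4%) were lower in RIL60, and 98 differed by at least 2-fold. A difference of 4-fold or more was reached by 9 of the higher and 7 of the lower probes. These fold counts hold under the main background correction. Without background correction, 18 of the 24 largest differences were smaller by more than 1.5 times. The median size of the difference was 1.36 over the 107 probes and 0.36 over all 1000. In 104 of the 107 the levels of the lines did not overlap on the Cy3 arrays or on the Cy5 arrays, against 20.3% of all probes. Both spots of the probe differed in the same direction in each of the 107, but the calls were made on the mean of those spots. The overlap and spot counts are drawn from the values that made the calls and are no separate support. On the day recorded in the headers that holds 3 RIL60 and 4 RIL78 arrays, 53 probes were called, 24 higher and 29 lower in RIL60, and those arrays are also the ones left when RIL60 replicate 3 is taken out. The count was 42 without RIL60 replicate 2, 54 without RIL60 replicate 4 and 70 without RIL78 replicate 1.

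**Figure D1:**
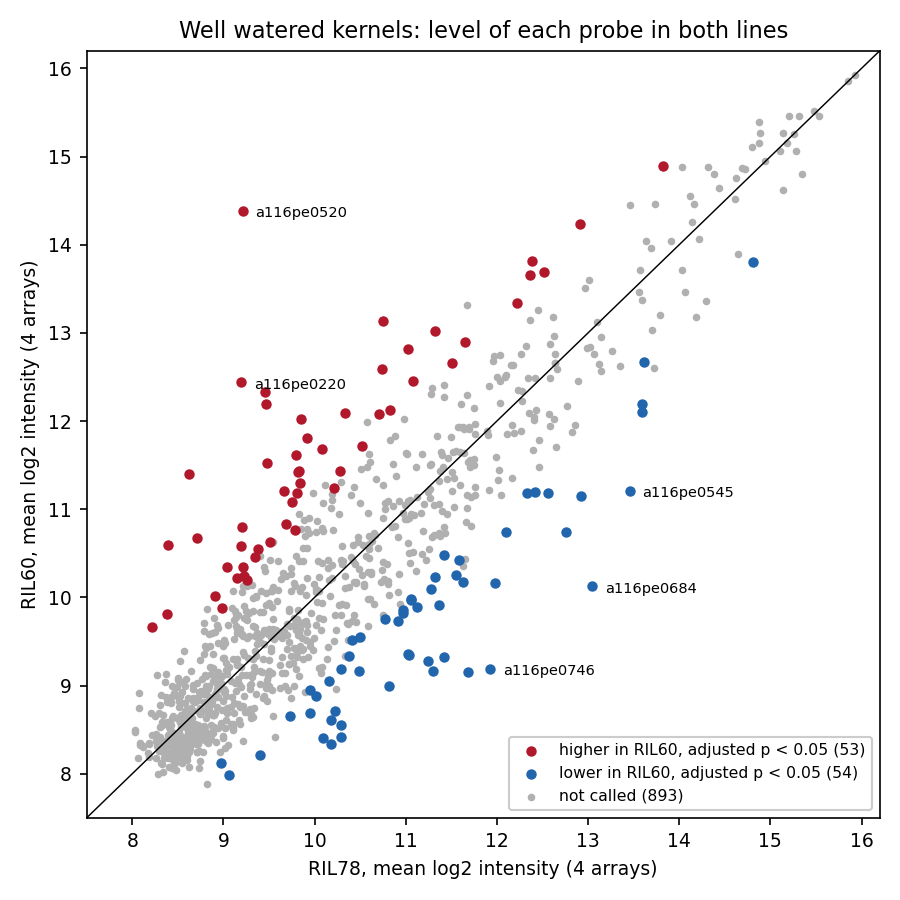
Mean well watered level of each of the 1000 probes in RIL60 (y axis) and in RIL78 (x axis), in log2 intensity over 4 arrays each. The 53 red points above the diagonal were called higher in RIL60 and the 54 blue points below it lower in RIL60, and a116pe0520 stands alone at 14.39 in RIL60 and 9.21 in RIL78.

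The difference of greatest size among the 107 was that of a116pe0520. Its well watered level was 14.00, 14.24, 14.65 and 14.66 on RIL60 arrays 1 to 4, against 9.33, 9.12, 8.76 and 9.64 on the RIL78 arrays. It was above background on all 4 RIL60 arrays and on 1 of 4 RIL78 arrays, and the lowest RIL60 array lay more than 4 units above the highest RIL78 array. The level averaged 14.39 ± 0.33 in RIL60 and 9.21 ± 0.37 in RIL78 (SD, n = 4 each), a 36.1-fold difference (5.17 ± 0.26 SE on the log2 scale, adjusted p = 7.55e-07). Within the dyes it was 4.89 on the Cy3 arrays and 5.46 on the Cy5 arrays. With RIL78 above background on 1 array, the size of the difference depends on the background correction. It was 3.73 without background correction and 4.21 with plain background subtraction.

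Probes a116pe0220 and a116pe0527 followed in size among those higher in RIL60. Probe a116pe0220 stood at 12.12, 11.88, 13.21 and 12.55 on the RIL60 arrays, against 8.56, 9.63, 9.58 and 9.01 on the RIL78 arrays. It was 9.46-fold higher in RIL60 (3.24 ± 0.31 SE, adjusted p = 0.000268). Under the main background correction, a116pe0220 and a116pe0520 were the 2 probes that differed by 8-fold or more. Probe a116pe0527 stood at 11.56, 12.01, 13.22 and 12.53 in RIL60, against 8.97, 9.42, 10.17 and 9.25 in RIL78. It was 7.35-fold higher in RIL60 (2.88 ± 0.30 SE, adjusted p = 0.000282). Both were above background on all 4 RIL60 arrays and on 2 of 4 RIL78 arrays, and in both the lowest RIL60 array lay above the highest RIL78 array. Their sizes also depend on the background correction. Without it the differences were 1.98 for a116pe0220 and 1.76 for a116pe0527, and with plain background subtraction 2.40 and 2.15.

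Probe a116pe0973, one of the probes that earlier results of these arrays had named for a drought response, already differed without stress. Its well watered levels were 10.97, 11.16, 11.78 and 11.67 in RIL60, against 8.98, 8.76, 8.54 and 8.22 in RIL78. The difference was 6.83-fold (2.77 ± 0.28 SE, adjusted p = 0.000268), with RIL60 above background on 4 arrays and RIL78 on 1. Its size depends on the background correction, at 1.38 without it and 1.82 with plain background subtraction.

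The RIL78 arrays themselves differed in several of the probes higher in RIL60. Probe a116pe0187 measured 12.38, 11.72, 11.99 and 12.69 in RIL60, against 8.11, 8.97, 10.45 and 10.35 in RIL78, where the Cy5 arrays were the higher ones. Its difference was 3.51 on the Cy3 arrays and 1.94 on the Cy5 arrays, and 2.72 ± 0.37 SE over both (adjusted p = 0.00100). Probe a116pe0148 measured 12.61, 12.85, 13.55 and 13.54 in RIL60, against 9.27, 10.54, 11.82 and 11.36 in RIL78, and RIL60 was 5.24-fold higher (2.39 ± 0.32 SE, adjusted p = 0.000929). In a116pe0669 the split ran across the dyes. Its levels were 11.90, 12.08, 11.58 and 12.52 in RIL60, against 8.84, 10.96, 11.05 and 8.57 in RIL78, so that RIL78 replicates 1 and 4 lay more than 2 units below RIL78 replicates 2 and 3. The difference was 2.17 ± 0.55 SE (adjusted p = 0.0299), and 1.01 (adjusted p = 0.0831) without those 2 arrays, a choice made after the data were seen. It passed in 2 of the 8 fits that leave out 1 array, those without RIL78 replicate 2 or 3, with adjusted p up to 0.108. Probe a116pe0301 measured 11.61, 11.49, 12.16 and 11.99 in RIL60, against 9.17, 10.81, 10.32 and 9.38 in RIL78, with the same 2 arrays low. Its difference was 1.89 ± 0.37 SE (adjusted p = 0.00894) with all arrays and 1.24 (adjusted p = 0.0320) without them.

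The other 4 of the 12 largest higher probes were a116pe0750, a116pe0945, a116pe0271 and a116pe0745. Probes a116pe0750 and a116pe0271 were above background on all 4 RIL60 arrays and on none of the RIL78 arrays. Their folds therefore depend on the background correction. Each was set against the dimmest signal counted as above background on each RIL78 array, or the probe's own where that was higher. By this floor a116pe0750 was 3.84-fold higher in RIL60 and a116pe0271 3.89-fold higher, under the main background correction. Without background correction their differences were 1.01 and 0.91, and with plain background subtraction 1.34 and 1.24. Their measured levels averaged 10.60 and 10.67 in RIL60, against 8.39 and 8.71 in RIL78 (adjusted p = 0.000422 and 0.000283). Probe a116pe0945 stood at 11.15, 11.28, 11.67 and 12.01 in RIL60, against 9.36, 9.30, 9.75 and 9.50 in RIL78, with a spread within each line far smaller than its difference of 2.05 ± 0.22 SE (adjusted p = 0.000283). Probe a116pe0745 was higher in RIL60 by 1.85 ± 0.45 SE (adjusted p = 0.0270), with 1 RIL78 array, replicate 4 at 12.33, well above the other 3 at 9.82 to 10.50. It no longer passed without RIL60 replicate 2, 3 or 4 or without RIL78 replicate 1 or 2, with an adjusted p of up to 0.0940.

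Among the probes lower in RIL60, a116pe0684 had the difference of greatest size. Its well watered level was 9.93, 9.35, 10.79 and 10.44 on the RIL60 arrays, against 12.13, 11.56, 14.25 and 14.24 on the RIL78 arrays. All 8 arrays were above background, and the RIL78 arrays fell into a lower Cy3 pair and a higher Cy5 pair. The difference was -2.21 on the Cy3 arrays and -3.63 on the Cy5 arrays. Over both dyes RIL60 was 7.58-fold lower (-2.92 ± 0.33 SE, adjusted p = 0.000320). With median and MAD scaling of the arrays the difference was -3.36 and did not pass (adjusted p = 0.0628).

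Probes a116pe0622 and a116pe0545 were lower in RIL60 by 5.78-fold and 4.75-fold. Probe a116pe0622 measured 9.10, 8.83, 9.40 and 9.31 in RIL60, against 10.79, 11.56, 11.79 and 12.60 in RIL78 (-2.53 ± 0.28 SE, adjusted p = 0.000320). Its RIL60 arrays lay close together, 2 of them above background, while the RIL78 arrays spread over nearly 2 units. Probe a116pe0545 measured 10.73, 10.94, 11.50 and 11.68 in RIL60, against 13.06, 13.78, 13.53 and 13.47 in RIL78 (-2.25 ± 0.26 SE, adjusted p = 0.000330). It was above background on all 8 arrays.

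Both a116pe0746 and a116pe0765, named before for a drought response, were lower in RIL60 without stress. Probe a116pe0746 stood at 8.93, 10.24, 8.90 and 8.70 in RIL60, against 11.27, 12.45, 12.37 and 11.61 in RIL78 (-2.73 ± 0.38 SE, adjusted p = 0.00114). It was above background on 1 of 4 RIL60 arrays and on all 4 RIL78 arrays. Probe a116pe0765 stood at 8.84, 9.31, 9.74 and 9.40 in RIL60, against 11.69, 11.27, 11.68 and 11.04 in RIL78 (-2.10 ± 0.27 SE, adjusted p = 0.000686). All 8 arrays were above background in that probe, and the lines did not overlap.

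The other 7 of the 12 largest lower probes differed by between -2.13 and -1.82. Probe a116pe0756 measured 9.47, 8.91, 8.96 and 9.32 in RIL60, against 10.04, 11.09, 11.63 and 12.43 in RIL78, where the arrays ranged over more than 2 units (-2.13 ± 0.38 SE, adjusted p = 0.00565). Probe a116pe0793 measured 10.97, 10.27, 10.46 and 11.26 in RIL60, against 12.69, 12.54, 12.80 and 12.98 in RIL78, a tight set (-2.02 ± 0.26 SE, adjusted p = 0.000789). Probe a116pe0581 measured 8.77, 8.95, 9.80 and 9.59 in RIL60, against 11.14, 11.13, 11.52 and 11.17 in RIL78 (-1.96 ± 0.24 SE, adjusted p = 0.000422). Probe a116pe0069 averaged 8.41 ± 0.53 in RIL60, where 1 of 4 arrays was above background, and 10.29 ± 0.60 in RIL78, where 3 were (SD, n = 4 each). Its difference was -1.88 ± 0.28 SE (adjusted p = 0.00154). Probe a116pe0811 was 3.53-fold lower in RIL60 and was above background on all 8 arrays. Probe a116pe0474 was also 3.53-fold lower in RIL60, with 3 of 4 RIL60 arrays and all 4 RIL78 arrays above background. Probe a116pe0558 was above background on 3 RIL78 arrays and on none of the RIL60 arrays. Set against such a floor on the RIL60 arrays, it was 3.33-fold lower in RIL60 under the main background correction. Without background correction its difference was -0.82.

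**Figure D2:**
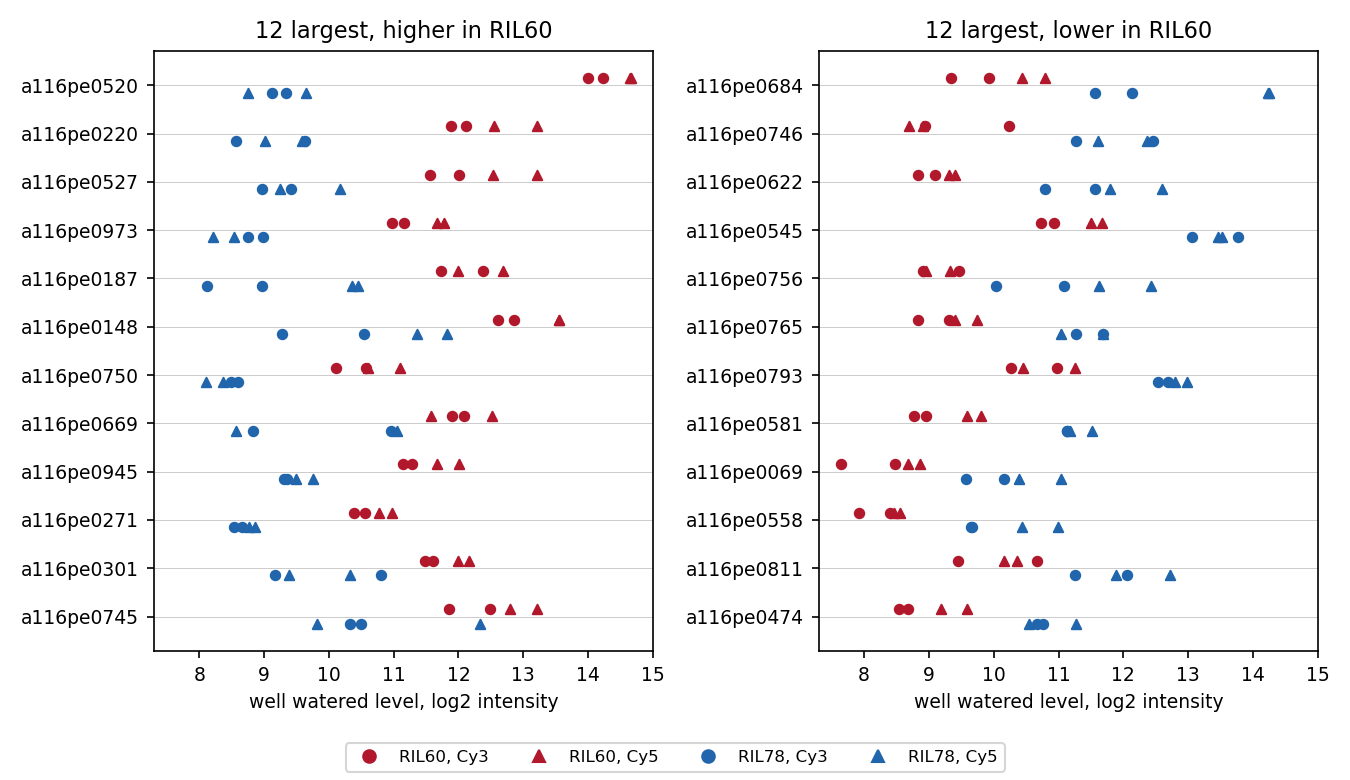
Well watered level (x axis, log2 intensity) on each array of the 12 probes with the largest differences in each direction, RIL60 in red above RIL78 in blue, with circles for Cy3 arrays and triangles for Cy5 arrays. The 24 probes were chosen to be separated within each dye, and the RIL78 arrays of a116pe0684 form a pair near 12 in Cy3 and a pair at 14.24 and 14.25 in Cy5.

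The 24 probes differed in how far the dim line could be measured. All 12 higher probes were above background on 4 RIL60 arrays, but 1 of them was above background on all 8 arrays. Of the 12 lower probes, 10 were above background on 4 RIL78 arrays and 5 on all 8. Over the 107 called probes, 14 of the 53 higher and 26 of the 54 lower were above background on all 8 arrays, against 275 of all 1000 probes. Of the 107, 4 were above background on no RIL78 array and 7 on no RIL60 array. For these the dim line was set at the dimmest signal above background, or the probe's own where that was higher. Their differences then ran from 2.10-fold to 3.89-fold higher and from 1.60-fold to 3.33-fold lower in RIL60, under the main background correction. No called probe had a saturated spot. Without background correction 18 of the 24 differences were smaller by more than 1.5 times, among them a116pe0220 at 1.98, a116pe0558 at -0.82 and a116pe0069 at -0.74, and all 24 passed the test.

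Calls were spread unevenly over signal strength. Of the 250 probes with the dimmest mean signal 2 were called (0.8%), and in the next 3 sets of 250, in order of signal, 17 (6.8%), 49 (19.6%) and 39 (15.6%) were. The median SE of the difference was 0.26 in the dimmest set and 0.30 in the brightest. Of the 50 probes with the brightest mean signal, 3 were called, and they are named here after their values were seen. Probe a116pe0047 averaged 14.89 in RIL60 and 13.82 in RIL78, and a116pe0240 averaged 14.24 in RIL60 and 12.91 in RIL78. Probe a116pe0535 averaged 13.80 in RIL60 and 14.81 in RIL78.

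The 10 probes named whatever their values were a116pe0026 and those named before for a drought response. Of these 10, 3 were called in well watered kernels, against 10.7% of all probes. They were a116pe0973, higher in RIL60, and a116pe0746 and a116pe0765, lower in RIL60. All 3 had been named for a response in these arrays that is measured against the same well watered values. Their share therefore does not test a link between drought response and line difference. The other 7 were not called. Probe a116pe0012 had well watered levels of 14.79, 14.45, 14.70 and 15.26 in RIL60, against 15.40, 15.45, 15.34 and 15.19 in RIL78 (-0.54 ± 0.24 SE, unadjusted p = 0.0463, adjusted p = 0.194), and with MAD scaling the difference was -1.28 (adjusted p = 0.515). Probe a116pe0026 had 14.10, 14.28, 15.11 and 14.72 in RIL60, against 13.68, 14.48, 13.73 and 14.57 in RIL78 (0.44 ± 0.29 SE, adjusted p = 0.377). Both were bright in both lines without stress, and the lines overlapped. Probe a116pe0174 averaged 9.83 ± 0.28 in RIL60 and 9.96 ± 0.53 in RIL78 (SD, n = 4 each), a difference of -0.13 ± 0.30 SE whose sign turned without RIL78 replicate 4 (0.079). The differences of a116pe0028, a116pe0872, a116pe0829 and a116pe0970 were 0.30, -0.61, 0.43 and -0.51, with an adjusted p of 0.201 or more.

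The same arrays also carried the stressed RNA of both lines, which allows the line difference to be set beside the one without stress. In stressed kernels 81 of 1000 probes (8.1%) differed between RIL60 and RIL78, 45 higher and 36 lower in RIL60, and with median centring the split was 60 and 27. Both fits use the same slides and spots. The stress count was 53, 38 and 41 without RIL60 replicate 1, 2 and 3, and 41 on the day that holds both lines. Called in both RNAs and in 1 direction were 57 probes, 29 higher and 28 lower in RIL60, which is 53.3% of the well watered calls and 70.4% of the stress calls. No probe was called in opposite directions. Of the 107, 105 had the same sign under stress, against 81.3% of all 1000 probes.

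Of the 24 largest differences, 21 were also called in stressed kernels, against 8.1% of all probes. Both RNAs lay on the same slides and spots, so this count is no independent replication. In a fit of both channels together, the channels of a spot correlated at 0.82. Probe a116pe0520 stood at 13.77, 13.80, 14.50 and 14.68 in stressed RIL60 kernels, against 9.41, 9.30, 9.08 and 10.03 in stressed RIL78 kernels, so that the lines were again far apart (4.73 ± 0.28 SE, adjusted p = 3.70e-06). Probe a116pe0684 differed by -3.20 ± 0.34 SE (adjusted p = 0.000229) under stress, and a116pe0220 by 3.42 ± 0.32 SE (adjusted p = 0.000104). The exceptions were a116pe0669 among the higher probes, at 2.00 ± 0.62 SE (adjusted p = 0.0716), and a116pe0746 and a116pe0765 among the lower ones.

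**Figure D3:**
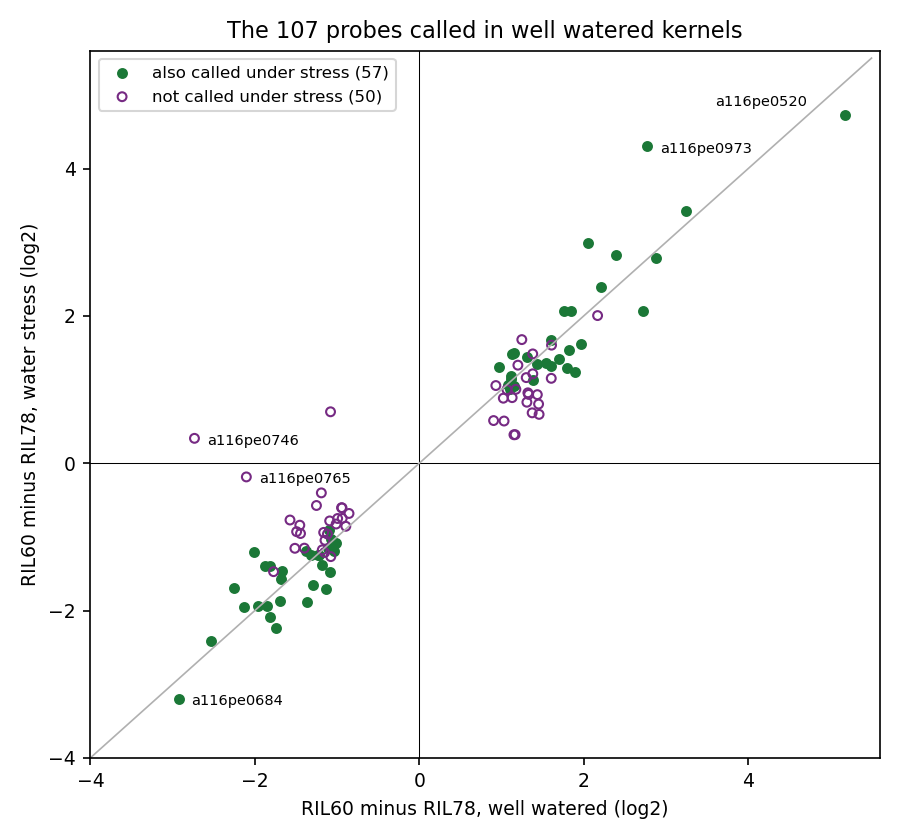
RIL60 minus RIL78 in stressed kernels (y axis) against the same difference in well watered kernels (x axis), in log2 units, for the 107 probes called in well watered kernels. The 57 filled points were also called under stress, the diagonal marks equal differences, 105 points have the same sign on both axes, and a116pe0746 and a116pe0765 lie near 0 under stress at 0.34 and -0.19.

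In a116pe0746 and a116pe0765 the line difference of well watered kernels was not seen under stress. Stressed a116pe0746 measured 8.48, 9.68, 8.99 and 8.89 in RIL60, against 8.54, 8.63, 8.51 and 9.01 in RIL78, so that the lines overlapped. Stressed a116pe0765 measured 9.08, 8.93, 9.50 and 9.45 in RIL60, against 9.78, 9.38, 9.42 and 9.11 in RIL78, and again overlapped. The mean RIL60 level under stress was 9.01 for a116pe0746 and 9.24 for a116pe0765, against 9.19 and 9.32 without stress. In RIL78 the means under stress were 8.67 and 9.42, against 11.93 and 11.42 without stress. The line difference was -3.07 ± 0.31 SE in well watered minus stressed kernels for a116pe0746 and -1.92 ± 0.18 SE for a116pe0765 (adjusted p = 0.000320 each). These probes had been named for their response in the same arrays, so these values describe that choice and are no independent evidence.

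Probes a116pe0012, a116pe0026 and a116pe0174 were called under stress and not without it. Stressed a116pe0012 measured 13.57, 13.09, 12.73 and 13.44 in RIL60, against 15.57, 15.57, 15.45 and 15.49 in RIL78 (-2.31 ± 0.25 SE, adjusted p = 0.000301). Stressed a116pe0174 measured 8.90, 8.43, 9.76 and 9.26 in RIL60, against 11.47, 11.00, 10.63 and 12.13 in RIL78 (-2.22 ± 0.36 SE, adjusted p = 0.00379). In a116pe0026 the difference under stress was -1.42 ± 0.31 SE (adjusted p = 0.0173). Probes a116pe0012 and a116pe0174 too were chosen for their response in these arrays, and a116pe0026 was named with them.

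Over all probes, the line difference itself differed between well watered and stressed kernels at 33 of 1000 probes (3.3%), of which 8 were among the 107. Within these 33, 9 were called under stress only, 5 without stress only, 3 in both and 16 in neither. Probe a116pe0973 differed more under stress, at 4.30 ± 0.28 SE, than without it, with stressed levels of 12.53, 13.08, 13.14 and 13.23 in RIL60, against 8.08, 9.01, 9.04 and 8.64 in RIL78. Probe a116pe0945 had the same order, at 2.98 ± 0.24 SE under stress and 2.05 without it. Probe a116pe0793 differed less under stress, at -1.20 ± 0.29 SE against -2.02 without it. The 2 probes of the 107 with opposite signs in the RNAs were a116pe0746 and a116pe0649, the second named after its values were seen, at 0.70 ± 0.32 SE under stress and -1.08 ± 0.28 SE without it.

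Levels in the susceptible lines show on which side of the difference other lines lie. For this all 16 arrays were scaled together within each dye, and the values are a description with no test. The well watered channel of RIL66 is labelled as such, while the label of its stressed RNA is worded unlike that of the other lines. At the 107 called probes the mean of RIL66 was nearer to RIL60 in 57 and nearer to RIL78 in 50, and that of RIL68 was nearer to RIL60 in 64 and nearer to RIL78 in 43. Both susceptible lines were nearer to RIL60 at 38 probes, both nearer to RIL78 at 24, and they parted at 45. Among the 54 probes lower in RIL60 both were nearer to RIL60 at 27 and both nearer to RIL78 at 5, and among the 53 higher ones the counts were 11 and 19. In both directions they thus lay more often with the dimmer line. The probes were picked for a difference between RIL60 and RIL78, and no share over all probes was taken. Likeness between whole lines was not tested.

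Single probes took different shapes over the 4 lines. Probe a116pe0520 averaged 13.90 ± 0.13 in RIL60, 13.03 ± 0.64 in RIL66, 9.69 ± 0.62 in RIL68 and 9.06 ± 0.38 in RIL78 (SD, n = 4 each), with RIL60 and RIL66 high and RIL68 and RIL78 low. In a116pe0684 RIL78 stood apart, at 12.57 ± 1.07, while RIL60 averaged 9.83 ± 0.35, RIL66 10.12 ± 0.22 and RIL68 10.28 ± 0.35. RIL78 was likewise the one high line in a116pe0746, a116pe0622, a116pe0765 and a116pe0474. In a116pe0746 RIL60 averaged 9.07 ± 0.78, RIL66 8.34 ± 0.52 and RIL68 8.70 ± 0.60, against 11.49 ± 0.60 in RIL78. RIL60 was the highest line in a116pe0750, at 10.25 ± 0.24, against 9.26 ± 0.54 in RIL68, 8.58 ± 0.22 in RIL66 and 8.36 ± 0.35 in RIL78. RIL60 and RIL68 were the high pair in a116pe0945 and a116pe0271, where RIL68 averaged 10.85 ± 0.83 and 10.68 ± 0.46.

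**Figure D4:**
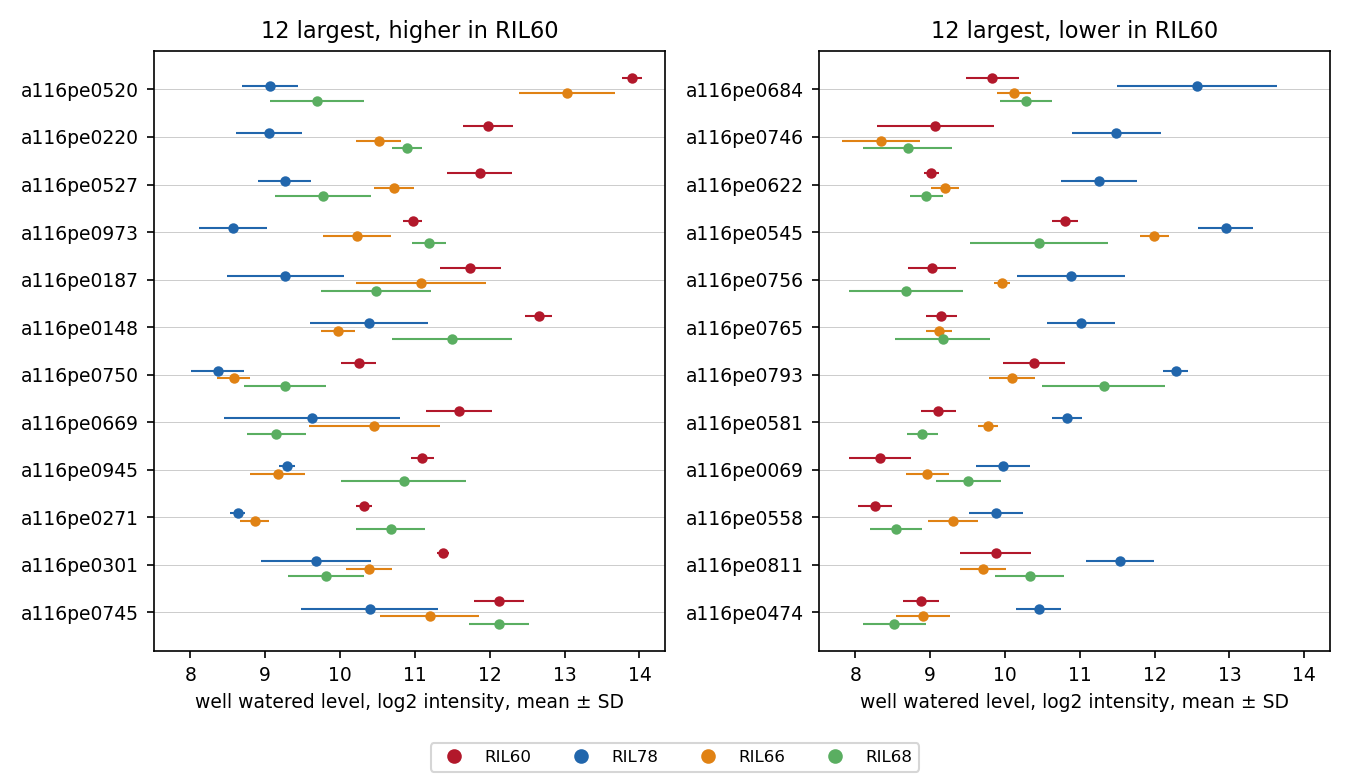
Well watered level (x axis, log2 intensity) of the 24 probes in RIL60, RIL78, RIL66 and RIL68, with points for the mean and lines for the SD of 4 arrays, all 16 arrays scaled together within each dye. RIL78 is the high line in a116pe0684 at 12.57, and RIL60 and RIL66 are both high in a116pe0520 at 13.90 and 13.03.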

How the data were processed

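Per the file headers, ScanArray software produced the deposited values, linear intensities with a local background per spot and channel from 0 to 65535, which the authors had not background subtracted. Of 2048 spots per array, 48 controls were left out, as were 55 probe spots on the 8 arrays that the authors had marked as excluded. The 1000 probes have 2 spots each. The deposited table of log2 ratios holds no well watered level and was not used. Dyes in the headers matched the labels on 16 of 16 arrays. Precision is limited by the number of arrays.

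The well watered channel was corrected with limma's normexp (limma 3.58.1 in R 4.3.3, offset 50, per array and channel), quantile normalised over the arrays of each dye, and averaged over spots. Such scaling assumes that the overall distribution of levels is alike in both lines and hides any common shift. RIL60 minus RIL78 was fitted with lmFit and eBayes with dye as a term, with Benjamini-Hochberg adjustment over 1000 probes and a threshold of 0.05. The stress channel was fitted the same way, and the difference between both as a fit of the within-array difference. SEs are those of the fit. Spots counted as above background at an intensity more than 2 background SDs over the local background, and as saturated from 99% of the scanner maximum. Figures were drawn with matplotlib 3.10.9. The fit was tested on simulated data with independent noise on each array, which cannot show effects shared by the arrays of a line.

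Probes named are the 12 largest differences per direction among those called with no overlap within either dye, and 10 named whatever their values. Those 10 are a116pe0026 and probes named before for a drought response. The comparison, the 10 probes and the lists were chosen with earlier results of these data known. A maize gene table of 49888 entries held 0 of the 1000 probe IDs, so tissue marker lists were not used. Alternatives covered background correction, scaling, model, dye, header day, filters, thresholds and each array left out.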

Additional observations from a re-analysis of the deposited data

Results flagged for a closer look

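Among 62 sets of 4 arrays, each of a named probe and a line with the dye term taken out, 3 held an array that stood apart from the other 3. Chance alone marks about 1 set in 20 for independent values, and levels with the dye term taken out are not independent. The gap to the nearest array, as a share of the whole range, was 0.912 for a116pe0545 on RIL78 replicate 2, 0.866 for a116pe0558 on RIL78 replicate 4 and 0.830 for a116pe0474 on RIL78 replicate 4. Before the dye term was taken out their levels were 13.78, 11.00 and 10.55. The other RIL78 arrays then lay at 13.06 to 13.53, 9.64 to 10.44 and 10.66 to 11.28. In a116pe0474 the array was thus close to its nearest neighbour. All 3 probes stayed called without that array.

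The line difference was not the same in the 2 RNAs for 9 of the named probes, by the fit of well watered minus stressed kernels. In 5 of them the value was negative, at -3.07 for a116pe0746 (adjusted p = 0.000320), -1.92 for a116pe0765 (adjusted p = 0.000320), -1.53 for a116pe0973 (adjusted p = 0.0174), -0.93 for a116pe0945 (adjusted p = 0.0150) and -0.82 for a116pe0793 (adjusted p = 0.0189). In the other 4 it was positive, at 2.09 for a116pe0174 (adjusted p = 0.000107), 1.86 for a116pe0026 (adjusted p = 0.000950), 1.77 for a116pe0012 (adjusted p = 0.000320) and 0.99 for a116pe0028 (adjusted p = 0.0150). All but a116pe0945, a116pe0793 and a116pe0026 had been chosen for their drought response in these arrays, and a116pe0026 was named with those.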

How the results depend on the processing

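The count of 107 lay between 77 and 122 under 17 other settings, and the stress count of 81 between 70 and 87 under 6. The well watered count moved to 37 with median and MAD scaling (17 higher, 20 lower, median of all differences -0.12, against -0.03), 59 with no dye term, 31 and 62 on the Cy3 and the Cy5 arrays alone, 51 with the header day as a block, 53 on the shared day, 37 at an adjusted p under 0.01, and 40 with the first spot of each pair only, against 90 with the second, both added after seeing the data. The stress count moved to 35 with no dye term, 42 with the header day as a block and 41 on the shared day. Leaving out 1 array gave 42 to 93 well watered and 38 to 77 stress calls. Replicate numbers were not taken to pair the samples, since deviations of same-numbered arrays correlated at 0.0018 and 0.021 within line and dye, and at -0.022, 0.14, 0.15 and -0.054 from the line mean for replicates 1 to 4. With the replicate block 99 probes were called without stress, 95 of them among the 107, and 70 under stress. Over 33 settings the 24 largest differences gave 791 values, of which 754 passed, 37 did not and 0 changed sign. MAD scaling ended 5 calls, those of a116pe0684, a116pe0756, a116pe0301, a116pe0669 and a116pe0745, the Cy3 arrays alone 7 and the Cy5 arrays alone 3. The sign of uncalled probes turned in a116pe0026 (-0.44 with MAD scaling) and in a116pe0174 (0.18 on Cy5 arrays, -0.43 to 0.079 with 1 array left out, 0.085 with the second spot only, 0.19 without RIL78 replicates 1 and 4). Fewer samples enter the single-dye, shared-day and leave-one-out fits, and other causes were not tested. Signal was above background on none of the 8 arrays for 99 probes.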
